A study of Mus musculus with 8 samples.

Results

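The Kruppel-like factors (KLFs) are zinc finger transcription factors that bind GC-rich and CACCC-type sequences in promoters. The 10 genes described here, Klf2, Klf3, Klf4, Klf5, Klf6, Klf9, Klf10, Klf12, Klf13 and Klf15, were taken by their symbols from the 21759 genes of a table of estimated read counts, and all 10 were found. They were measured by RNA-seq in sagittal kidney slices from a knock-in mouse line that models MUC1 kidney disease, which arises when a frameshifted MUC1 gene makes an aberrant protein and the tubules and interstitium are damaged. All animals were males of 8 months. Daily dosing over 7 days was with saline, the vehicle, in 4 samples and with the small molecule BRD4780 (50 mg/kg) in the other four. AGN50 stands in the titles of the latter, whose group was read from the treatment given for each sample. Vehicle and treated animals share the knock-in, animals lacking it were not analysed here, and the promoter and the cells that express it are not stated in the labels. Each sample was taken as 1 mouse, which the labels do not state, and p-values set group differences against the spread between these samples.

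Members of the family share a DNA-binding domain of zinc fingers and differ in the part that recruits partners. KLF2 and KLF4 are best known in endothelium, where blood flow raises them through the kinases MEK5 and ERK5 and the MEF2 factors, and KLF4 is also described in podocytes. KLF3 and KLF12 are repressors that bind the co-repressor CtBP, and KLF9, KLF10 and KLF13 recruit the co-repressor SIN3A. KLF9 and KLF15 are known as direct targets of the glucocorticoid receptor. KLF15 is known for regulating amino acid and glucose metabolism. KLF5 is known in collecting duct epithelium, KLF6 as an early response gene of injured tissue, and KLF10 as an early target of TGF-beta.

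RefSeq (GRCm38.p6) gave a start site for 8 of the 10 members, and the 250 bases before it were searched on both strands for 10 short motifs. The promoters of Klf2 and Klf4, the members with the highest fold changes below, and of Klf15, the member with the highest level, are shown from 5′ to 3′, stopped where GENCODE M21 places the first base of the gene. Capitals mark an E-box (CACGTG), the element bound by clock factors, or a MEF2 site (CTA and TAG with any 4 bases between them).
Klf2, chr8:72318812-72319032, plus strand: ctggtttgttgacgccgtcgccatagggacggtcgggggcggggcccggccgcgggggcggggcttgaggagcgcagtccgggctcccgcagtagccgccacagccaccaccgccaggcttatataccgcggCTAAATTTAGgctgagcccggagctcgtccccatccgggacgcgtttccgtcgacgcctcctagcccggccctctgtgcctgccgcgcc
Klf4, chr4:55532476-55532725, minus strand: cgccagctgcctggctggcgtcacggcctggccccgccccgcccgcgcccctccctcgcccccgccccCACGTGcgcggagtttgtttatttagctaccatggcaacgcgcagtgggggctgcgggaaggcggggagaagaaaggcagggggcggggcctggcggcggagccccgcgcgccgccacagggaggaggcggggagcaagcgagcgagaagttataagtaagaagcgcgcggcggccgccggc
Klf15, chr6:90462326-90462575, plus strand: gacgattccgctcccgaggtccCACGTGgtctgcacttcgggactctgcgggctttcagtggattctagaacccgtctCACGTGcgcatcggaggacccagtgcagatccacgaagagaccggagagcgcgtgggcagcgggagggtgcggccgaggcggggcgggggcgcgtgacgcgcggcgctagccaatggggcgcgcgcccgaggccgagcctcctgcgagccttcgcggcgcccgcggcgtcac
The Klf2 window held the letters CTAAATTTAG, a MEF2 match, 118 to 109 bases before the start. It was the 1 match to this motif among the 8 members, and 3.2% of all 32851 promoters of this length held one. An E-box stood in 3 of 8 members (6.02% of all promoters), with 1 match in Klf4, 1 in Klf6 and 2 in Klf15. The CACCC box (CACCC) stood in 6 of 8 members (52.0% of all promoters), with 5 matches in Klf3 and none in Klf4 and Klf6. The GC box (GGGCGG) stood in 6 of 8 (32.7%), the CCAAT box (CCAAT) in 4 of 8 (33.8%) and the TATA box (TATAAA) in 1 of 8 (12.4%). The cAMP response element (TGACGTCA) stood in 0 of 8 (1.55%) and its half-site (TGACG), which the full element contains, in 6 of 8 (17.8%). The glucocorticoid response element (AGAACA and TGTTCT with any 3 bases between them) stood in 0 of 8 (0.00913%), and TGATGNAAN, a composite element bound by ATF4, in 0 of 8 (3.44%). The full windows of 250 bases had a GC content of 71.2% (Klf2), 74.0% (Klf4) and 72.0% (Klf15), against a median of 52.4% over all promoters. GC-rich motifs occur more often by composition alone in such sequence. A match is a description of these letters, and binding was not measured.

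Library totals ran from 16.6 to 28.5 M counts with vehicle and from 5.74 to 28.2 M with BRD4780, where replicate 4 was the shallowest. The lowest count of any member was 11, for Klf5 in that library. Replicate numbers follow the order of deposition and pair nothing. BRD4780 replicate 3 stood apart from the other treated libraries: without it, 1647 genes were called higher, against 310 of 13474 with it, by edgeR's quasi-likelihood test. Markers of proximal tubule were the most abundant of the 12 cell type lists, at 39500 to 67300 summed CPM (counts scaled to library size). Estimated counts that are not whole show reads shared with another sequence. Klf2 and Klf5 had whole counts in all 8 libraries, whereas those of Klf4 were not whole in 6 libraries and those of Klf9 in 8. Klf3 was the 1 member with exons overlapping an annotated gene on the opposite strand (404 bases), and it is unknown whether strand was used in counting.

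Levels were compared between genes as CPM per kb of exon in GENCODE M21. Klf15 was the most abundant member with vehicle at 40.6 CPM per kb, with libraries from 35.7 to 46.3. Klf9 followed at 10.1, ranging from 8.66 to 11.4. Both ranges lay apart from those of their lower neighbours. Klf10 (7.08), Klf13 (6.51) and Klf6 (6.35 CPM per kb) had overlapping vehicle ranges. Within libraries, Klf10 was above Klf13 in 4 of 4 vehicle libraries and Klf13 above Klf6 in 3 of 4. Klf2 at 3.31 and Klf4 at 1.59 CPM per kb came next, each apart from its neighbours. Klf12 (1.07) and Klf3 (1.03) overlapped, with Klf12 the higher in 2 of 4 vehicle libraries, and Klf5 was the lowest at 0.367 CPM per kb. Klf15 made up 47.6% to 56.0% of the summed level per kb of the 10 genes in the vehicle libraries and 45.1% to 55.2% in the BRD4780 libraries. With BRD4780 the means of Klf13, Klf9, Klf6 and Klf10 were 9.04, 8.96, 8.03 and 6.96 CPM per kb, and a change in their order was not tested. Klf15 was highest and Klf5 lowest in all 8 libraries, as the plot of levels per length shows.

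**Figure D1:**
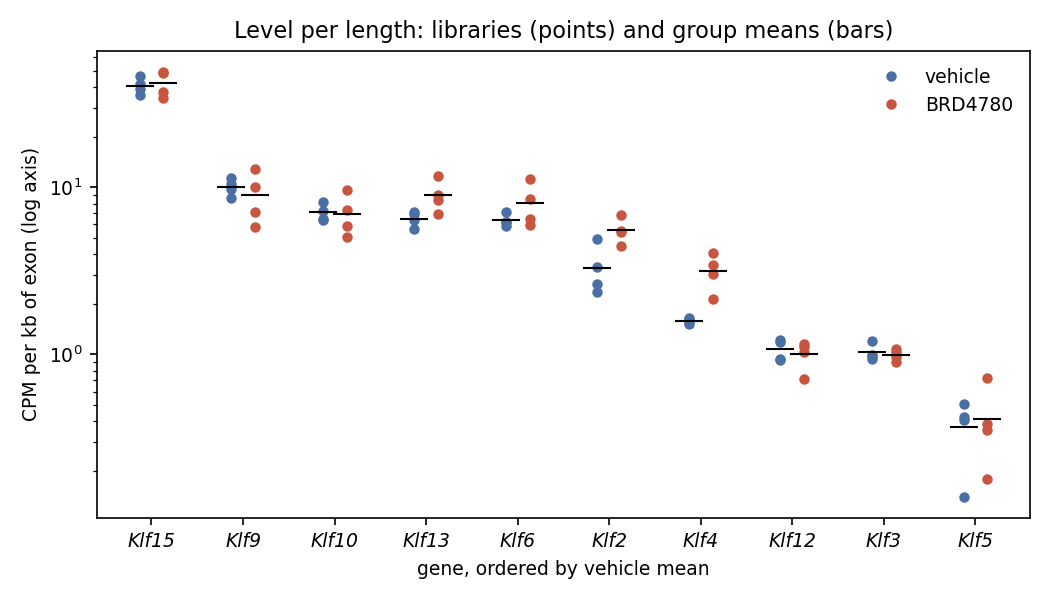
CPM per kb of exon (log axis) of the 10 genes, ordered by the vehicle mean, with libraries as points (blue vehicle, red BRD4780) and group means as bars. Klf15 lies highest at 40.6 and Klf5 lowest at 0.367 CPM per kb with vehicle.

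With BRD4780, Klf4 rose and the other 9 members did not pass the test. By edgeR's quasi-likelihood test with Benjamini-Hochberg adjustment over 13474 genes, 1 of 10 members was higher, against 2.30% of all genes tested, and 0 of 10 were lower, against 0.623%. DESeq2 called 3 of 10 higher, against 6.40% of all genes, and limma-voom 1 of 10, against 1.51%, each with 0 lower. At an unadjusted p under 0.05, edgeR had 3 members higher, against 13.9% of all genes, and 0 lower, against 10.7%. Log2 fold changes were positive in 6 members and negative in 4, with a median of 0.12 (0.0097 over all genes tested). A single called gene is too few to set the family apart from the background.

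Klf4 (chromosome 4, 55527143 to 55532466, minus strand, in GENCODE M21 on mm10, as for all genes here) stood at 4.63, 4.97, 4.75 and 5.04 CPM in vehicle replicates 1 to 4. In BRD4780 replicates 1 to 4 it stood at 9.31, 10.4, 6.53 and 12.4 CPM. Each treated library lay above each vehicle library, as in 7.44% of all genes tested. The vehicle libraries were nearly level, with a ratio of highest to lowest of 1.09, while that of the treated libraries was 1.89. The mean rose from 4.85 ± 0.19 to 9.65 ± 2.44 CPM (± SD, n = 4 in each; 1.96-fold, log2 fold change 0.97 ± 0.19 SE, edgeR adjusted p = 0.0306). In BRD4780 replicate 3, the lowest of the treated libraries, the level was 0.42 above the vehicle mean on the log2 scale, against 0.93 to 1.34 in the other three. The log2 fold change ran from 0.85 to 1.12 when libraries were left out in turn, but the call was lost when any of 7 libraries was omitted: vehicle replicates 1 to 4 or BRD4780 replicates 1, 2 and 4 (edgeR adjusted p = 0.0530 to 0.0976). Without BRD4780 replicate 3 the edgeR adjusted p was 0.000852, and 3 of 10 members were called higher, against 12.1% of all genes.

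**Figure D2:**
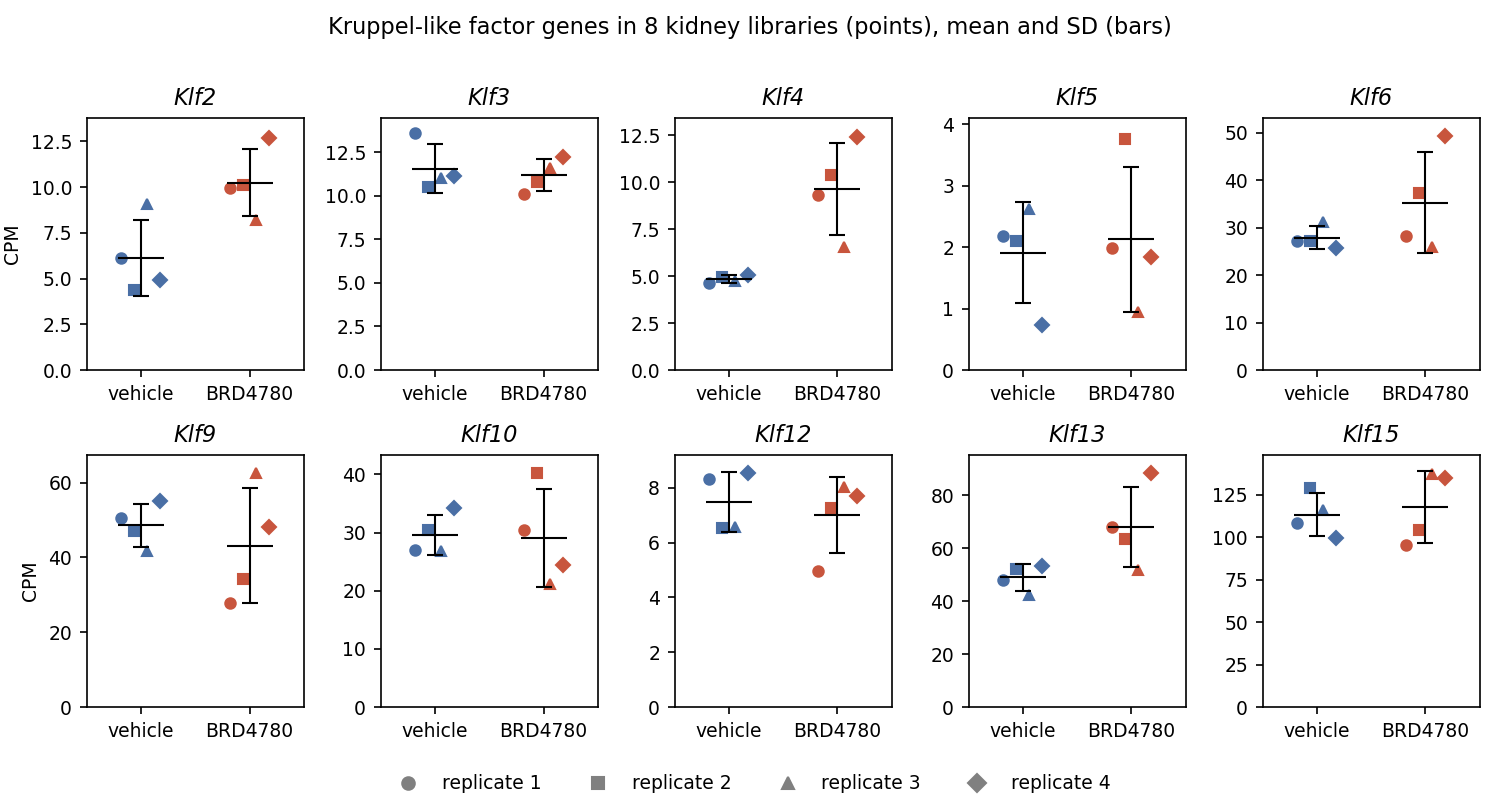
CPM of each gene in the 8 libraries (points, shaped by replicate number; blue vehicle, red BRD4780), with group mean and SD as bars and each axis starting at 0. The 4 treated libraries of Klf4 lie above its 4 vehicle libraries, while the groups of the other 9 genes overlap.

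Klf2 (chromosome 8, 72319033 to 72321656, plus strand) is the other flow-responsive endothelial member. It stood at 6.14, 4.38, 9.07 and 4.92 CPM under vehicle and at 9.97, 10.1, 8.22 and 12.7 CPM in the treated group, replicates 1 to 4. The groups overlapped through vehicle replicate 3 and BRD4780 replicate 3, and 3 of 4 treated libraries lay above all vehicle libraries. The means were 6.13 ± 2.10 and 10.3 ± 1.85 CPM (± SD, n = 4 in each; log2 fold change 0.74 ± 0.23 SE, edgeR adjusted p = 0.0964). The 95% interval of the fold ran from 1.17 to 2.37 without adjustment. Klf2 passed the threshold with DESeq2 (adjusted p = 0.0303) and, in edgeR, without BRD4780 replicate 3 (log2 fold change 0.83, adjusted p = 0.0295).

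Markers of endothelium and podocytes moved with the same libraries. DESeq2 called 10 of 11 endothelial and 7 of 9 podocyte markers higher, against 6.40% of all genes. With limma-voom 4 of each list were higher, against 1.51%. At an unadjusted p under 0.05 in edgeR, 10 and 9 were higher, against 13.9%. All markers of both lists had a positive log2 fold change. Their edgeR counts, given below, stand against 2.30% of all genes called higher and 0.623% called lower. In bulk tissue, more cells of a type and more RNA per cell cannot be told apart. Of 11 endothelial markers 4 were higher and 0 lower: the VEGF receptor gene Flt1 (1.88-fold), Egfl7 (1.67-fold), the guidance receptor gene Robo4 (1.93-fold) and endoglin, Eng (1.64-fold), with edgeR adjusted p = 0.0231, 0.0231, 0.0318 and 0.0327. Their summed level was 179 to 320 CPM in the vehicle group and 371 to 463 CPM in the treated group, and none was at 0 in any library. Of 9 podocyte markers 4 were higher and 0 lower: nephrin, Nphs1 (4.08-fold), podocalyxin, Podxl (2.52-fold), the phosphatase gene Ptpro (2.36-fold) and Cdkn1c, which restrains cell division (2.93-fold), with edgeR adjusted p = 0.0114, 0.0175, 0.0448 and 0.0305. Their sum ran from 66.4 to 156 CPM in vehicle libraries and from 221 to 332 CPM in the treated group, again with none at 0.

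Among vehicle libraries, Klf4 did not follow these sums. In vehicle replicate 4, the lowest in both lists, Klf4 had its highest vehicle level (5.04 CPM). Among treated libraries the order was the same for Klf4 and both sums, lowest in replicate 3, then 1, 2 and 4. Klf2 was highest among vehicle libraries in replicate 3, where the endothelial sum was highest too. At the low end they parted: Klf2 was lowest in replicate 2 (4.38 CPM), and the endothelial sum in replicate 4, where Klf2 stood at 4.92 CPM. Per 100 CPM of endothelial markers, Klf2 stood at 2.06, 1.69, 2.83 and 2.75 CPM under vehicle and at 2.61, 2.27, 2.22 and 2.75 CPM in the treated group. Scaled in this way the treated values lay within the vehicle range, with means of 2.33 ± 0.55 and 2.46 ± 0.26 (± SD, n = 4 in each; two-sided exact permutation p = 0.743, also adjusted p = 0.743 over 3 such ratios). Klf4 per 100 CPM of endothelial markers stood at 1.55, 1.92, 1.48 and 2.82 CPM under vehicle and at 2.43, 2.33, 1.76 and 2.67 CPM in the treated group, again within the vehicle range. It had means of 1.94 ± 0.61 and 2.30 ± 0.39 (± SD, n = 4 in each; two-sided exact permutation p = 0.371, adjusted p = 0.557). Klf4 per 100 CPM of podocyte markers stood at 2.97, 4.3, 3.53 and 7.6 CPM under vehicle and at 3.28, 3.34, 2.96 and 3.72 CPM in the treated group, where only replicate 3 was outside the vehicle range, just below it. It had means of 4.60 ± 2.07 and 3.33 ± 0.31 (± SD, n = 4 in each; two-sided exact permutation p = 0.257, adjusted p = 0.557). The smallest p this design allows is 0.0286. These ratios were chosen after the values were seen. Vehicle replicate 4 alone set the top of the vehicle range in both Klf4 ratios (2.82 and 7.6 CPM). With 4 libraries per group these p-values cannot decide the part of cell composition in the Klf2 and Klf4 results, which was not tested.

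**Figure D3:**
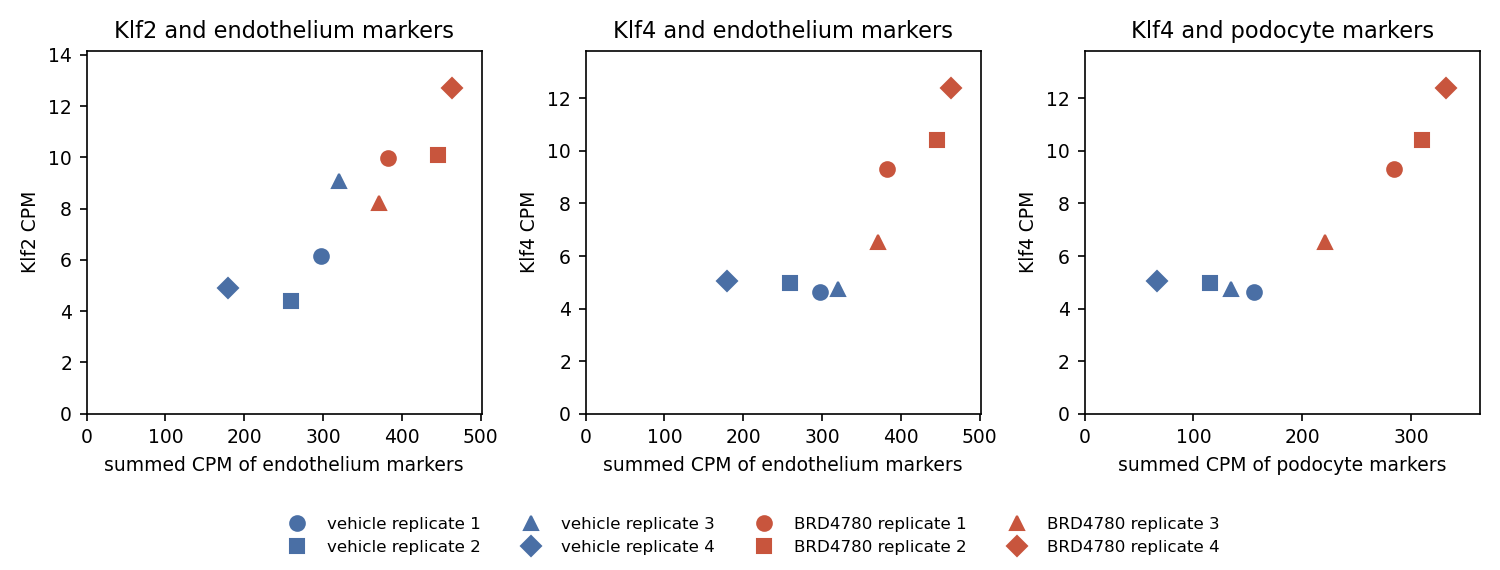
Klf2 or Klf4 (CPM, vertical axes) against the summed CPM of 11 endothelial or 9 podocyte markers (horizontal axes), 1 point per library, shaped by replicate number (blue vehicle, red BRD4780). Klf4 stays between 4.63 and 5.04 CPM across vehicle libraries whose podocyte sum runs from 66.4 to 156 CPM.

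Klf13 (chromosome 7, 63886351 to 63938915, minus strand), a repressor that recruits SIN3A, was the third member with an interval above 0. It stood at 48.0, 52.2, 42.3 and 53.5 CPM under vehicle and at 68.2, 63.6, 52.0 and 88.5 CPM in the treated group. The groups overlapped only through BRD4780 replicate 3. The means were 49.0 ± 5.0 and 68.1 ± 15.2 CPM (± SD, n = 4 in each; 1.38-fold, log2 fold change 0.46 ± 0.15 SE, edgeR adjusted p = 0.0983). Like Klf2, Klf13 passed with DESeq2 (adjusted p = 0.0437) and without BRD4780 replicate 3 (log2 fold change 0.57, edgeR adjusted p = 0.00908).

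Klf9 (chromosome 19, 23141226 to 23168134, plus strand), its relative with the same kind of repression domain, showed a wider spread and no call. It stood at 50.6, 47.0, 41.7 and 55.1 CPM under vehicle and at 27.8, 34.2, 62.5 and 48.2 CPM in the treated group. Replicates 1 and 2 of the treated group lay below all vehicle libraries and replicate 3 above them, so the treated group reached both sides of the vehicle range. The means were 48.6 ± 5.7 and 43.2 ± 15.5 CPM (± SD, n = 4 in each; log2 fold change -0.18 ± 0.22 SE, edgeR adjusted p = 0.643). Without BRD4780 replicate 3 the log2 fold change was -0.44 (adjusted p = 0.0774) and without replicate 1 it was -0.01. Klf10 (chromosome 15, 38291463 to 38300706, minus strand), the TGF-beta early gene, stood at 27.0, 30.4, 26.8 and 34.2 CPM under vehicle and at 30.5, 40.3, 21.1 and 24.4 CPM in the treated group. Its treated libraries also reached both above and below the vehicle range, and the log2 fold change was -0.01 ± 0.18 SE (95% interval of the fold 0.751 to 1.31, edgeR adjusted p = 0.975).

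Klf15 (chromosome 6, 90462576 to 90475238, plus strand), the most abundant member, stood at 108, 129, 116 and 99.5 CPM under vehicle and at 95.6, 104, 137 and 135 CPM in the treated group. Treated replicates 3 and 4 lay above the vehicle range and replicate 1 below it. The fold was 1.04 with a 95% interval of 0.849 to 1.27 (edgeR adjusted p = 0.839). Among the members, this gene and Klf3 had the narrowest intervals around no change. Klf6 (chromosome 13, 5861482 to 5870394, plus strand), an injury response gene, stood at 27.1, 27.3, 31.3 and 25.7 CPM under vehicle and at 28.3, 37.3, 26 and 49.4 CPM in the treated group. Its replicates 2 and 4 of the treated group lay above the vehicle range and the other two within it (log2 fold change 0.32 ± 0.18 SE, edgeR adjusted p = 0.289). Without replicate 4, the shallowest library, the log2 fold change of Klf6 was 0.13.

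The CtBP-binding repressors Klf3 and Klf12 had no call. Klf3 (chromosome 5, 64803388 to 64832901, plus strand) ranged from 10.5 to 13.6 CPM in vehicle libraries and from 10.1 to 12.2 CPM in the treated group (log2 fold change -0.06 ± 0.12 SE, 95% interval of the fold 0.797 to 1.16). Klf12 (chromosome 14, 99870632 to 100284679, minus strand) ranged from 6.52 to 8.54 CPM in vehicle libraries and from 4.97 to 8.04 CPM in the treated group (log2 fold change -0.11 ± 0.18 SE, interval 0.702 to 1.22). Klf5 (chromosome 14, 99298691 to 99315036, plus strand) was the least counted member. It had 61, 57, 43 and 17 counts with vehicle and 48, 112, 25 and 11 with BRD4780. In CPM these were 2.19, 2.10, 2.62 and 0.733, and 1.99, 3.76, 0.939 and 1.84. Within each group Klf5 varied more than any other member, 3.57-fold with vehicle and 4.00-fold with BRD4780, and the interval of its fold change ran from 0.569 to 2.29. A rise of 2-fold in Klf5 lies within that interval.

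**Figure D4:**
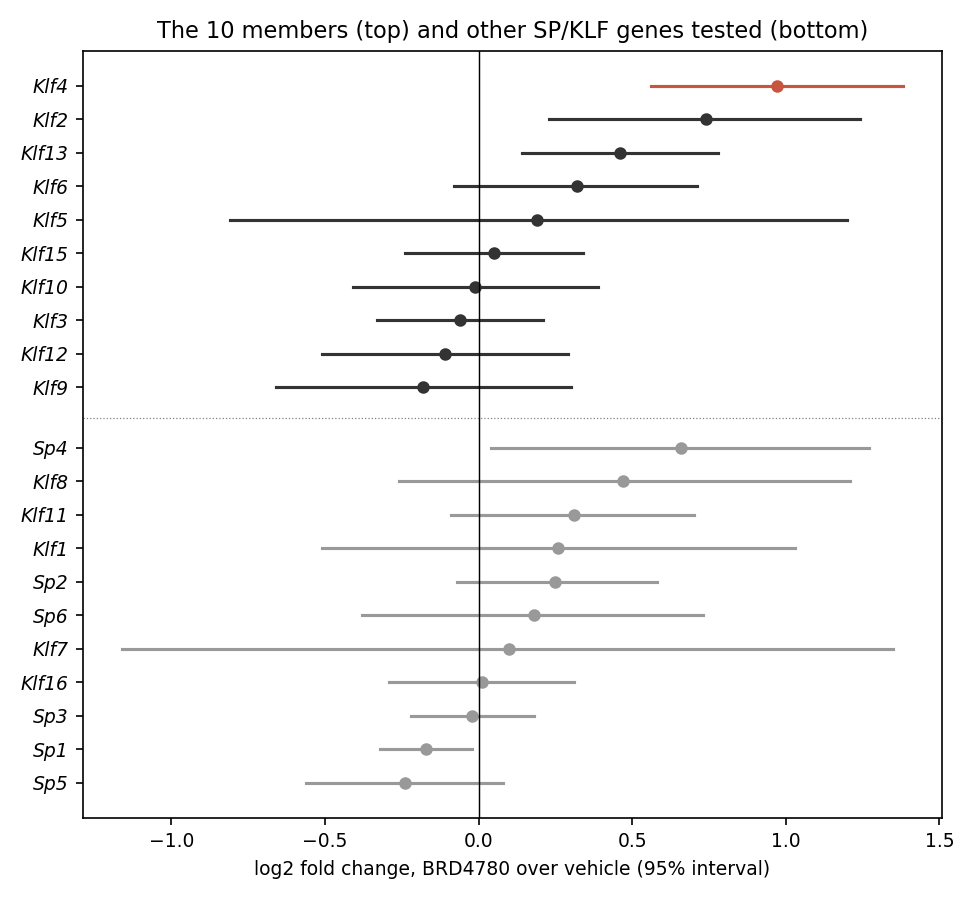
Log2 fold change of BRD4780 over vehicle with its 95% interval (horizontal axis) for the 10 members (top) and the 11 other SP/KLF genes tested (bottom), with genes past the adjusted threshold in red. Klf4 is the 1 gene in red. The intervals of Klf2, Klf13 and Sp4 also lie above 0, and that of Sp1 lies below 0.

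Spread between libraries was larger in the treated group. It includes counting error, which is larger in a shallow library. The SD of log2 CPM was larger with BRD4780 in 7 of 10 members, close to the share over all genes tested (69.9%). The median SD went from 0.167 with vehicle to 0.351 with BRD4780 in the members and from 0.144 to 0.209 over all genes. BRD4780 replicate 4 was the highest of all libraries for 4 members, Klf2, Klf4, Klf6 and Klf13. It is the shallowest library (5.74 M counts), with 76 counts for Klf2 and 74 for Klf4. BRD4780 replicate 1 was the lowest for 4, Klf3, Klf9, Klf12 and Klf15. The shares of all genes highest or lowest in these libraries were not counted. Among treated libraries, replicate 3 was the lowest for Klf2, Klf4, Klf5, Klf6, Klf10 and Klf13 and the highest for Klf9, Klf12 and Klf15, as the map of deviations shows.

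**Figure D5:**
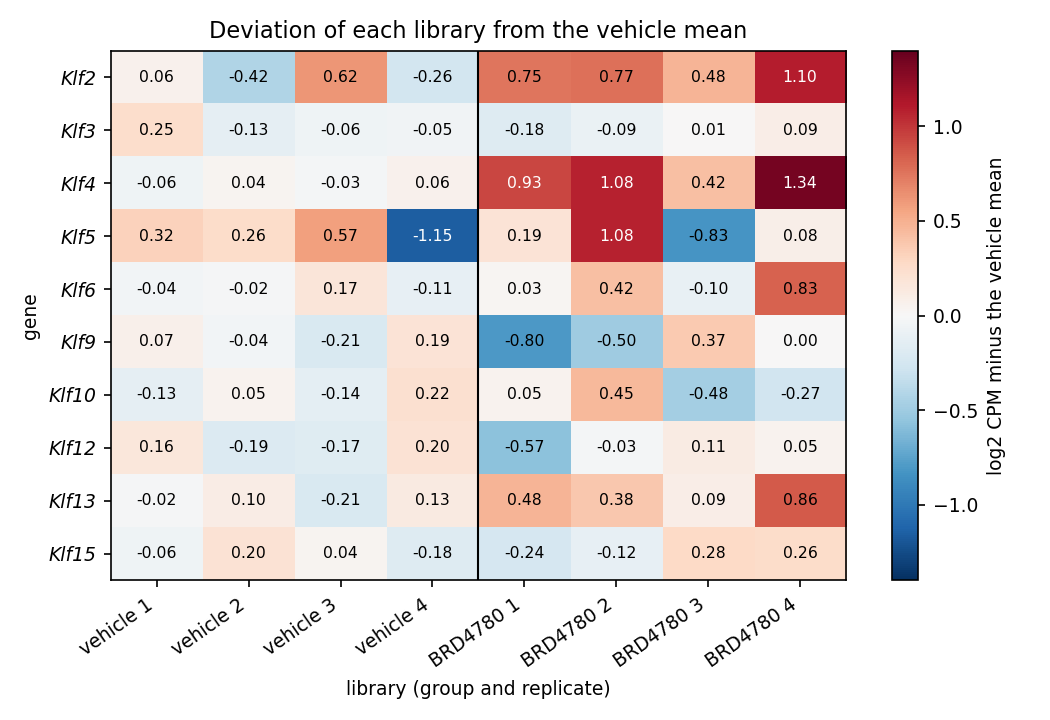
Log2 CPM of each gene (rows) in each library (columns) minus the mean of the vehicle libraries, with red above and blue below it. Klf2, Klf4 and Klf13 are above the vehicle mean in all treated libraries, by 0.09 to 1.34, whereas Klf9 runs from -0.80 to 0.37.

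The rest of the SP/KLF family was measured in the same table. Of 16 other genes, 11 were tested and 0 were called in either direction by edgeR, DESeq2 or limma-voom. At an unadjusted p under 0.05 in edgeR, 1 was higher (Sp4) and 1 lower (Sp1). Sp1, a GC-box factor present in nearly all cells, stood at 62.0 ± 3.0 CPM in the vehicle group and 55.0 ± 1.6 CPM in the treated group (± SD, n = 4 in each; log2 fold change -0.17 ± 0.07 SE, edgeR adjusted p = 0.16), with each treated library below each vehicle library, as in 5.16% of all genes. Sp4 stood at 4.29 ± 0.80 and 6.94 ± 2.68 CPM (± SD, n = 4 in each; log2 fold change 0.66 ± 0.28 SE, edgeR adjusted p = 0.179). Klf11, the closest relative of Klf10, had a log2 fold change of 0.31 ± 0.18 SE, with 3 treated libraries above the vehicle range and replicate 3 below it. Sp2, Sp3, Sp5, Sp6 and Klf16 had log2 fold changes between -0.24 and 0.25, and Klf1, Klf7 and Klf8 were low, at 0.375 to 0.890 CPM with vehicle. Klf14, Sp8 and Sp9 had a count of 0 in every library, which allows up to 0.105 CPM in the deepest and 0.523 CPM in the shallowest. Klf17 had 1 count and Sp7 had 2 over the 8 libraries.

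Genes upstream and downstream of the family were counted from lists. These lists were chosen with earlier results of these data known. Over all genes tested, edgeR called 2.30% higher and 0.623% lower, DESeq2 6.40% higher and limma-voom 1.51% higher. The list of KLF cofactors and ubiquitin ligases had 14 genes and also held Wwc1, which is neither. Of the 14, 0 were called by edgeR, DESeq2 or limma-voom (median log2 fold change -0.06). At an unadjusted p under 0.05 in edgeR, 1 was higher and 3 were lower. Fbxw7, whose product marks KLF proteins for degradation, had 1.23-fold (edgeR adjusted p = 0.117) and Smurf2, a ubiquitin ligase gene, 0.862-fold (edgeR adjusted p = 0.141). Of 11 genes of the MEK5, ERK5 and MEF2 pathway and the CCM complex that restrains it, 0 were called by these tools (median 0.08), and 0 at an unadjusted p under 0.05. Map3k3, a kinase gene upstream of MEK5, had 1.20-fold (edgeR adjusted p = 0.231) and Mef2d 1.17-fold (edgeR adjusted p = 0.383). Of 9 endothelial genes known to respond to KLF2 and KLF4, 1 was higher and 0 lower in edgeR (median 0.52), 3 higher in DESeq2 and 0 in limma-voom. The edgeR call was the sphingosine phosphate receptor gene S1pr1, from 9.06 ± 1.92 to 18.7 ± 5.6 CPM (± SD, n = 4 in each; 2.05-fold, edgeR adjusted p = 0.0453), and the endothelial marker sums given above were higher in the same libraries.

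Genes induced by glucocorticoids had 4 of 10 members higher in edgeR, against 2.30% of all genes tested, and 0 lower, against 0.623%. The list was chosen with earlier results of these data known, and its median log2 fold change was 1.1. At an unadjusted p under 0.05 all 10 were higher, against 13.9% of all genes, and DESeq2 called 8 higher, against 6.40%. Fkbp5, a chaperone gene of the glucocorticoid receptor, rose 2.45-fold (edgeR adjusted p = 0.00197). Tsc22d3, an anti-inflammatory effector gene, rose 2.16-fold, the clock gene Per1 2.43-fold and Errfi1, a feedback inhibitor of EGF receptor signalling, 1.43-fold (edgeR adjusted p = 0.0175, 0.0345 and 0.0265). In the same libraries Klf9 and Klf15, themselves known glucocorticoid targets, had folds of 0.884 and 1.04 with no call. Whether they differ from these 4 genes was not tested. Of 15 circadian clock genes 1 was higher, Per1, and 1 lower, Nr1d1, the REV-ERB alpha repressor gene (0.622-fold, edgeR adjusted p = 0.0218). DESeq2 called 4 higher and 1 lower. The median of the clock list was 0.18, and the labels state no time of day for tissue collection.

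Of 10 mostly metabolic genes known to respond to KLF15, 2 were higher and 0 lower in edgeR (median 0.06), against 2.30% and 0.623% of all genes. The list also held Kcnip2, a potassium channel subunit gene, at 1.36 CPM with vehicle (2.43-fold, edgeR adjusted p = 0.0922). At an unadjusted p under 0.05, 4 were higher, Kcnip2 among them, and 1 lower, against 13.9% and 10.7%. DESeq2 called 3 higher, Kcnip2 among them, and 1 lower. The latter was Acss2, an acetyl-CoA synthetase gene (0.671-fold, edgeR adjusted p = 0.089). Prodh, which starts proline breakdown, rose from 383 ± 19 to 550 ± 35 CPM (± SD, n = 4 in each; 1.43-fold, edgeR adjusted p = 0.0151). Pck1, of gluconeogenesis, rose 1.52-fold (edgeR adjusted p = 0.0315). Of 13 genes of the TGF-beta pathway 0 were called by edgeR, DESeq2 or limma-voom (median -0.01), with 1 higher and 1 lower at an unadjusted p under 0.05 in edgeR, and with the receptor gene Tgfbr1 at 1.3-fold (edgeR adjusted p = 0.114) and Smad3 at 0.779-fold (edgeR adjusted p = 0.118). Of 13 immediate early genes, a class induced within minutes by many stimuli, 0 were called by edgeR (median 0.20), with 4 higher and 0 lower at an unadjusted p under 0.05, and DESeq2 called 3 higher. The closest to the threshold were the mRNA decay factor gene Zfp36 at 1.62-fold (edgeR adjusted p = 0.0536) and Ier3 at 1.63-fold (edgeR adjusted p = 0.0721).

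The genes with profiles most like those of Klf4, Klf2 and Klf13 were found by the root-mean-square difference of log2 CPM over the 8 libraries, each gene centred on its mean, among 11137 genes. For Klf4 they were Cnbd2, Tbrg1 and Fas, at 0.114, 0.12 and 0.121. Tbrg1, named as a gene regulated by TGF-beta, rose from 55.3 ± 2.0 to 105.0 ± 19.3 CPM (± SD, n = 4 in each; log2 fold change 0.92, edgeR adjusted p = 0.0106). Fas, the death receptor gene, rose from 7.80 ± 0.57 to 15.1 ± 3.7 CPM (± SD, n = 4 in each; log2 fold change 0.94, edgeR adjusted p = 0.0288). For Klf2 the closest were the transcription factor gene Zeb1, the amino acid transporter gene Slc38a4 and the channel subunit gene Lrrc8c, at 0.134, 0.148 and 0.166, none of them past the threshold. For Klf13 they were Mars, the methionyl-tRNA synthetase gene, Zfp433 and Mb21d2, at 0.0877, 0.0908 and 0.0925. Mb21d2 was the 1 of these past the threshold (log2 fold change 0.47, edgeR adjusted p = 0.0493). These likenesses are descriptions over 8 libraries that share the treatment contrast.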

How the data were processed

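Kidney mRNA of 8 samples was selected on oligo-dT beads and made into stranded libraries, per the labels' protocols. The authors deposited 1 table of estimated counts per gene, also called expected counts, made from the reads without normalization. STAR 2.5.2b, RSEM 1.3.0, Picard, mm10 and hg19 appear, with no role or order, per the submitters' processing notes. No annotation or strand setting was found in the labels. RSEM divides ambiguous reads between genes by likelihood.

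Of 22121 lines, 343 symbols were repeated, each time with equal values, and were merged to leave 21759 genes. A further 1 column of per-sample values matched no sample here and was not used. Counts were rounded, filtered with filterByExpr (minimum count 10), scaled by TMM and tested with edgeR 4.0.16 (quasi-likelihood, R 4.3.3) over 4 vehicle and 4 BRD4780 libraries with no covariate. Benjamini-Hochberg adjustment ran over 13474 genes, threshold 0.05. CPM use TMM-scaled totals, and log2 CPM a prior count of 2. Fold changes are BRD4780 over vehicle, and each SE is the size of the log2 fold change over the root of its F. Intervals are 95%. DESeq2 1.42.0 and limma 3.58.1 (voom) served as alternatives. The test was tried on simulated data. The number of libraries limits the precision, and floors at a count of 0 (3 counts) cover counting error only.

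The members and lists were chosen with earlier results of these data known. The named genes are the members, the other SP/KLF genes, up to 4 called members of each list (where none was called, the 2 with the smallest p), and the 3 closest profiles of each called member, or of the 3 members with the smallest p where fewer than 3 were called. Profile genes were those at 1 or more in mean log2 CPM, leaving out provisional symbols.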

Additional observations from a re-analysis of the deposited data

How the results depend on the processing

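The 14 alternatives were DESeq2, limma-voom, RLE factors or plain totals in edgeR, no filter on low counts, a replicate block, and leaving out each of the 8 libraries. The number of members called higher was 1 over all 8 libraries, 3 with DESeq2 and 0 with the replicate block, and ran from 0 to 3 when a library was left out. It was 3 without BRD4780 replicate 3 and 0 without any of the other 7. It stayed at 1 under the other four alternatives, and the number called lower was 0 under every alternative. Over all genes, the same omissions left 26 to 176 genes called higher, against 310, and 1647 without BRD4780 replicate 3. With DESeq2 863 were called higher and 492 lower, against 310 and 84 by edgeR. With limma-voom 204 were higher and 70 lower. Of 140 values of members under alternatives, 114 kept direction and call, 8 lost the call of Klf4, 4 gained one (Klf2 and Klf13) and 14 changed sign, all in members with no call.

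The sign changes were these. With plain totals, which moved the median of all genes to 0.08, Klf3 had a log2 fold change of 0.01 and Klf10 of 0.07. When libraries were left out, Klf3 ran from -0.10 to 0.04, Klf5 from -0.30 to 0.48, Klf10 from -0.22 to 0.13, Klf12 from -0.20 to 0.03 and Klf15 from -0.03 to 0.14. The cause was not tested.

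The block used the number in the sample titles, 2 values of which occur in both groups. The labels do not say what it marks. Deviations from the group means correlated at -0.0097 and -0.298 across genes in the 2 same-numbered pairs. With 2 pairs, these values cannot show whether the numbers pair mice, and the block served only as an alternative. With the replicate block, Klf4 kept its log2 fold change of 0.97 without a call (adjusted p = 0.125), Klf10 was at 0.12 and Klf15 at -0.19. Klf5 moved from 0.19 to 1.07 (adjusted p = 0.407), Klf9 from -0.18 to -0.72 (adjusted p = 0.0771) and Klf2 from 0.74 to 1.11 (adjusted p = 0.0934), and 57 genes were called higher and 90 lower. The block rests on 4 of the 8 libraries.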

Other observations

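Members fell into unlike profiles among the treated mice, as a description of 4 libraries. Klf9 and Klf12 were lowest in BRD4780 replicate 1 (-0.80 and -0.57 on the log2 scale against the vehicle mean) and highest among the treated libraries in replicate 3 (0.37 and 0.11). Klf4 and Klf13 went the other way, with replicate 3 the lowest of the treated libraries (0.42 and 0.09) and replicate 4 the highest (1.34 and 0.86). The smallest root-mean-square difference between members over all 8 libraries was 0.175 in centred log2 CPM, for Klf3 and Klf12. This measure is small for any genes that vary little. Klf3 and Klf12 themselves varied by a root mean square of 0.127 and 0.237 around their means. Klf6 and Klf13 stood 0.226 apart, against 0.304 and 0.312 of their own. Klf2 and Klf4, which share a role in endothelium, stood 0.329 apart, against 0.503 and 0.529 of their own.

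Markers of other cell types also differed between the libraries. Over all genes tested, edgeR called 2.30% higher and 0.623% lower. All 6 thick ascending limb markers had a negative fold change, with 3 called lower by edgeR (the potassium channel gene Kcnj1, the claudin gene Cldn19 and the barttin gene Bsnd), and their sum ran from 2890 to 3910 CPM in vehicle libraries and from 1880 to 3110 CPM in the treated group. By edgeR, 1 of 4 distal convoluted tubule markers was higher. Of the lists for proximal tubule, collecting duct principal cells, intercalated cells, fibroblasts and mural cells, macrophages, lymphocytes, erythrocytes and adipocytes, none had a call by edgeR (3 genes higher and 11 lower at an unadjusted p under 0.05), while DESeq2 called 2 higher and 3 lower. Macrophage markers summed to 241 CPM in vehicle replicate 4, against 94.2 to 154 CPM in the other libraries. The part of these cell types in the values of the members was not tested.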
